A study of Homo sapiens with 14 samples.

Results

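Collagen crosslinking enzymes and CTHRC1, 9 genes together, were followed through AMG900 treatment of lung adenocarcinoma cells. The enzymes were the 5 lysyl oxidases LOX, LOXL1, LOXL2, LOXL3 and LOXL4 and the 3 lysyl hydroxylases PLOD1, PLOD2 and PLOD3. The genes were taken by name, and all 9 were among the 26732 genes listed in both count tables. RNA sequencing covered A549 and H1792, both established human lung adenocarcinoma lines, collected 48 h after addition of AMG900 at 0.1 µM or of DMSO, its solvent. AMG900 inhibits the aurora kinases of the cell division machinery. A549 cells, grown in DMEM, gave 4 DMSO and 4 AMG900 libraries, and H1792 cells, grown in RPMI medium, gave 3 and 3, while the treatment protocol speaks of 3 replicates. Each group is 1 cell line seeded in replicate dishes, so p-values measure the spread between dishes, which may be technical. Total counts ranged from 4254644 to 18962883 per library in A549 and from 42760874 to 79902934 in H1792, and the shallowest library was A549 DMSO replicate 1. In bulk RNA, fewer cells expressing a gene and less RNA per cell cannot be told apart.

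Collagen is strengthened outside the cell by covalent bonds between lysine side chains. Inside the endoplasmic reticulum, PLOD enzymes first hydroxylate some of these lysines, and PLOD2 acts on the telopeptides, whose hydroxylation leads to the stable type of crosslink found in stiff tumor stroma. After secretion, the copper-dependent LOX enzymes oxidize lysines and hydroxylysines to the aldehydes that form the bonds. LOX and LOXL1 also act on elastin, and CTHRC1 is a secreted glycoprotein linked to matrix remodeling and cell migration. PLOD2, LOX and P4HA1 are known targets of the hypoxia-inducible factors.

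The promoters of 4 genes, from the RefSeq table of GRCh38.p14, are shown here because the gene was called in both lines (PLOD2, LOXL4, PLOD3) or changed differently between the lines (LOX). Each line holds the 250 bases before the first listed transcription start, on the minus strand, at chr3:146161185-146161434 (PLOD2), chr5:122078260-122078509 (LOX), chr10:98268195-98268444 (LOXL4) and chr7:101217582-101217831 (PLOD3). Capitals mark the core of the hypoxia response element, ACGTG or GCGTG on either strand.
PLOD2: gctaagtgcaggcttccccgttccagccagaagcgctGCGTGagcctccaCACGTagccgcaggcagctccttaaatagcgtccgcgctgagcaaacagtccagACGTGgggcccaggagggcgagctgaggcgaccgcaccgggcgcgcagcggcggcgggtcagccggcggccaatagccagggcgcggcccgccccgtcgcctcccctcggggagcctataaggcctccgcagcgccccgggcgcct
LOX: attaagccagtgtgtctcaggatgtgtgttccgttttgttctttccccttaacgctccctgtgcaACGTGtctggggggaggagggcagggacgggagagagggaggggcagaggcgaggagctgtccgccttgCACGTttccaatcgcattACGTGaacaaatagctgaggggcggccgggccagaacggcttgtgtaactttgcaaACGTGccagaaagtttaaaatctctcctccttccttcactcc
LOXL4: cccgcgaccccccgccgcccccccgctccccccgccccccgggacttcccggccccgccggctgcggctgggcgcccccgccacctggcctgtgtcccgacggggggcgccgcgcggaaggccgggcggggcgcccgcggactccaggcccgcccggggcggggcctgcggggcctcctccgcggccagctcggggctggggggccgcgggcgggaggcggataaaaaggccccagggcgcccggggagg
PLOD3: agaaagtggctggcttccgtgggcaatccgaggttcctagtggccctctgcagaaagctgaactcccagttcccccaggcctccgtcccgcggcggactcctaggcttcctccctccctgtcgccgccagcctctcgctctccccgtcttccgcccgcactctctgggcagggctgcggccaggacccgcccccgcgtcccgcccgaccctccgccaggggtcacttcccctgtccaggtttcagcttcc
The core occurred 3 times before PLOD2, 4 times before LOX and 0 times before LOXL4 and PLOD3. Among the members not shown, it occurred 2 times before PLOD1 and 0 times before LOXL1. It occurred 0 times before the first listed start of LOXL3 and 1 time before the second. Of 35116 promoter windows of this length, 43.2% held it at least once, so its presence is common. The GC box GGGCGG, which 42.6% of windows held, occurred 6 times before LOXL4, 3 times before PLOD3 and 1 time each before PLOD2 and LOX, counting both strands. Before PLOD1 it occurred 4 times. LOXL2 and CTHRC1 are named only.

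To compare the genes with each other, CPM values (counts scaled to library size) were divided by transcript length in kb, on a scale shared by all 14 libraries. In A549 with DMSO, LOXL2 was the highest of the 9 at 116.5 ± 4.54 CPM per kb (SD, n = 4), followed by PLOD1 at 88.2 ± 3.83, PLOD3 at 39.5 ± 4.48 and PLOD2 at 18.2 ± 2.06. The other 5 genes were at 1.96 CPM per kb or less in A549, and the neighbors LOXL1 and LOXL4, LOXL3 and CTHRC1, and CTHRC1 and LOX overlapped between libraries. In H1792 with DMSO, PLOD1 led at 225.8 ± 3.78 CPM per kb (SD, n = 3), above LOXL2 at 192.7 ± 4.09 and PLOD3 at 112 ± 7.54. LOXL1 at 42.7 ± 1.30 and LOX at 40.5 ± 1.24 CPM per kb came next in H1792 and overlapped, and LOXL4 was the lowest at 0.603 ± 0.0547. In both lines LOXL2, PLOD1 and PLOD3 held the top of the order.

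**Figure D1:**
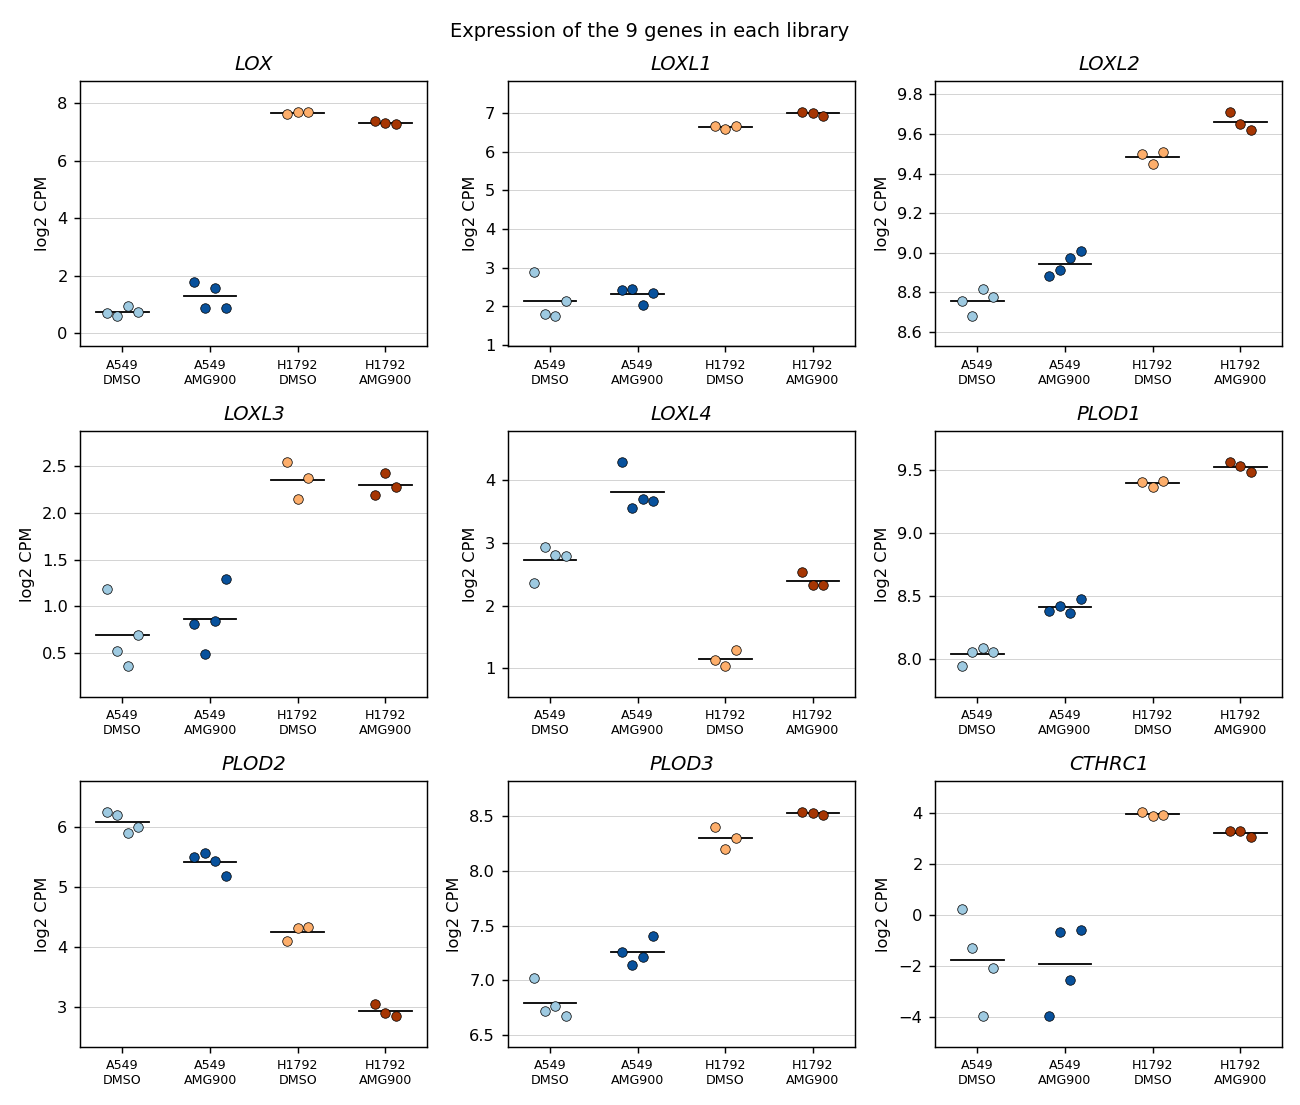
Log2 CPM (y axis, scaled over all 14 libraries, prior count 2) of each gene in every library of the 4 groups (x axis), with 1 point per library and a line at the group mean. LOX, LOXL1 and CTHRC1 sit far apart between the lines, PLOD2 sits lower with AMG900 in both lines, and LOXL4 sits higher.

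The lines differed at all 9 genes without drug. With DMSO, 7 genes were called higher in H1792 than in A549 and 2 were called lower (edgeR quasi-likelihood test, Benjamini-Hochberg FDR threshold 0.01), where 34.2% of the 14769 genes tested were called higher and 31.9% lower. LOX, the founding lysyl oxidase, was 124.6-fold higher in H1792, a log2 difference of 6.96 (SE 0.14, edgeR adjusted p = 6.9e-19). LOXL1, which acts on elastin, was 24.1-fold higher, a log2 difference of 4.59 (SE 0.14, edgeR adjusted p = 3.5e-16). CTHRC1 differed by 5.88 on the log2 scale (SE 0.42, edgeR adjusted p = 2.2e-10), but it passed the filter on low counts through H1792 only. Smaller increases were found for LOXL3 (3.38-fold), PLOD3 (2.86-fold), PLOD1 (2.56-fold) and LOXL2 (1.65-fold). PLOD2 and LOXL4 went the other way, 3.59-fold and 3.12-fold lower in H1792. Cell line, culture medium, count table and sequencing depth all differ between these groups and cannot be told apart.

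The make-up of each family followed from these levels. LOXL2 made up 96.2 ± 0.518% of the summed LOX family CPM per kb in A549 with DMSO (SD, n = 4) and 69.3 ± 0.284% in H1792 (SD, n = 3), where LOX contributed 14.6 ± 0.580% and LOXL1 15.4 ± 0.229%. PLOD2 made up 12.5 ± 1.27% of the PLOD family in A549 and 1.48 ± 0.165% in H1792. With AMG900 the PLOD2 share was 6.38 ± 0.864% in A549 and 0.533 ± 0.0294% in H1792, and the groups did not overlap in either line.

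**Figure D2:**
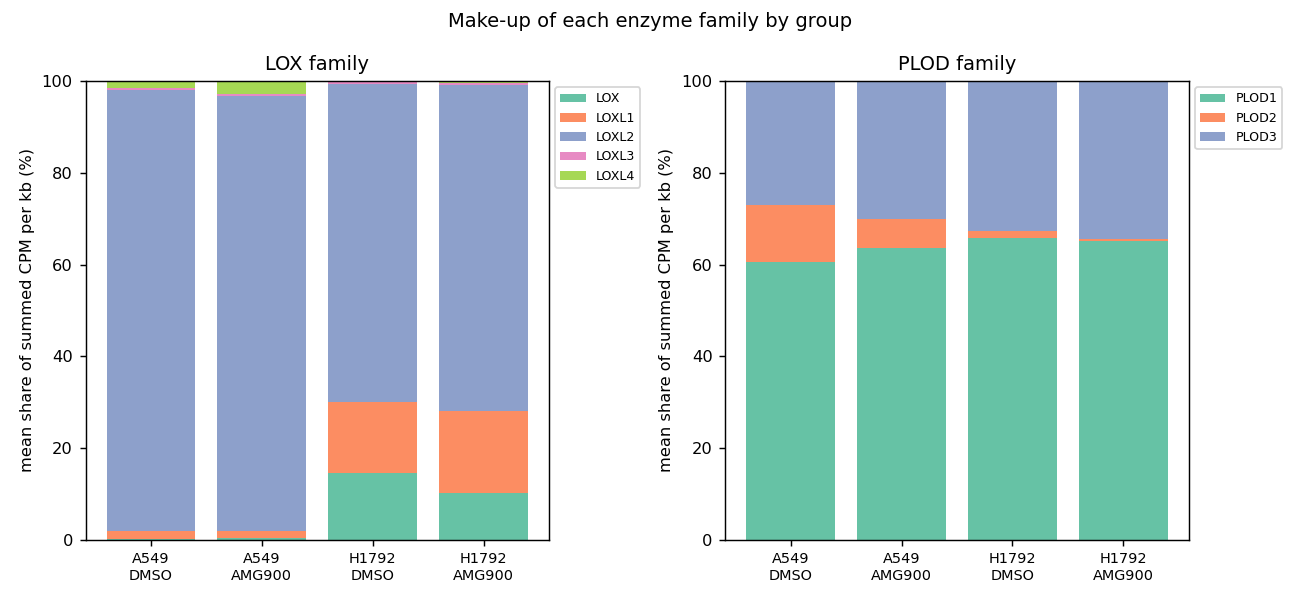
Mean share (y axis, %) of each enzyme in the summed CPM per kb of the LOX family (left) and the PLOD family (right) in the 4 groups (x axis). The PLOD2 band narrows from 12.5% to 6.38% in A549 and from 1.48% to 0.533% in H1792 with AMG900.

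The main question was whether blocking aurora kinases changed these genes within each line. In A549, 8 of the 9 genes passed the filter, of which 3 were called higher (LOXL4, PLOD1, PLOD3), 1 was called lower (PLOD2) and 4 were not called. Over all 13174 genes tested in A549, 17.2% were called higher and 17.8% lower. In H1792, where all 9 passed, 3 were called higher (LOXL4, LOXL1, PLOD3), 3 were called lower (PLOD2, CTHRC1, LOX) and 3 were not called, while 16.2% of 15017 genes were called higher and 18.8% lower. The median log2 fold change of the members tested was 0.23 in A549 and 0.13 in H1792, beside -0.010 and 0.009 over all genes tested. With the correction for GC content described next, the medians of the members were -0.04 and -0.10, so their sign turned in both lines. The members without overlap between DMSO and AMG900 libraries numbered 5 of 8 tested in A549 and 8 of 9 in H1792, where 43.9% and 59.7% of all genes tested did not overlap.

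Over the genes tested, which are no replicates of each other, GC-rich transcripts had higher fold changes than GC-poor ones in both lines (Spearman's rho 0.499 over 12789 genes in A549 and 0.481 over 14375 in H1792). The members followed that order in part: transcripts of PLOD2 (37.7% GC), LOX (39.6%) and CTHRC1 (44.4%) are the poorest in GC and those of PLOD3 (61.4%) and LOXL1 (67.0%) the richest. Changes of the members are therefore given also after a spline correction for GC content in every library. The correction takes away any change that goes with GC content, whatever its source, and what lies behind the trend was not tested.

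**Figure D3:**
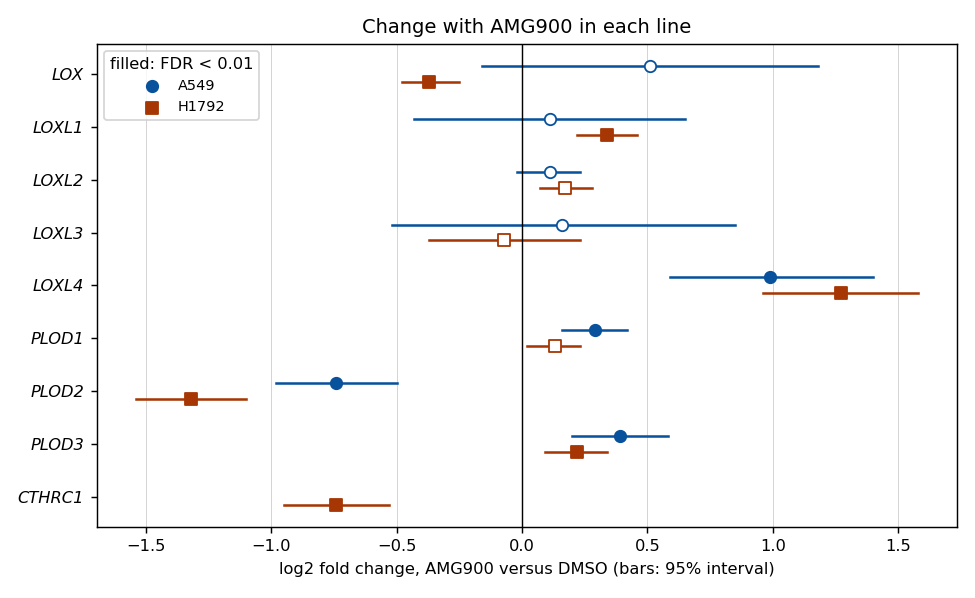
Log2 fold change of AMG900 versus DMSO (x axis) for each gene (y axis) in A549 (circles) and H1792 (squares), with 95% intervals as bars and filled symbols for FDR below 0.01. PLOD2 lies at -0.74 and -1.32, LOXL4 at 0.99 and 1.27, and CTHRC1 is shown for H1792 only.

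PLOD2, the telopeptide lysyl hydroxylase, fell in both lines. The gene lies on chromosome 3 from 145752926 to 145881512 of GRCh37. In A549 its CPM was 80.6, 77.8, 62.1 and 65.7 in DMSO replicates 1 to 4 and 45.3, 46.5, 43.1 and 35.4 in AMG900 replicates 1 to 4. Every AMG900 library was below every DMSO library. The log2 fold change was -0.74 (SE 0.11, edgeR adjusted p = 8.0e-05). In H1792 the CPM was 16.5, 19.3 and 19.7 with DMSO and 8.04, 7.23 and 6.93 with AMG900, again with no overlap. The log2 fold change was -1.32 (SE 0.10, edgeR adjusted p = 7.0e-06), which is a 2.49-fold decrease. After the GC correction the H1792 decrease was still called, at -0.81 (edgeR adjusted p = 2.4e-05), whereas the A549 change of -0.24 was not (edgeR adjusted p = 0.0274).

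PLOD2 was also described by its ratio to PLOD1 in the same libraries, which is no independent test of its decrease. PLOD1 itself changed by 0.29 in A549 and 0.13 in H1792, and the ratio holds the changes of both genes. The log2 ratio of PLOD2 to PLOD1 changed by -1.04 in A549 (exact two-sided permutation test, p = 0.0286, n = 4 per group, the smallest p this design allows) and by -1.45 in H1792 (n = 3 per group, exact permutation p = 0.1000, also the smallest possible). The ratio of PLOD3 to PLOD1 changed by 0.09 in each line, with exact permutation p of 0.4571 in A549 and 0.2000 in H1792. PLOD2 transcripts are poorer in GC than those of PLOD1 and PLOD3, and these ratios were not corrected for it.

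PLOD1, which hydroxylates lysines in the collagen helix and lies on chromosome 1 from 11994262 to 12035595, had 260.8, 281.2, 282.2 and 274.4 CPM in A549 with DMSO and 334.7, 338.3, 327.6 and 346.7 with AMG900. It rose in A549 by 0.29 on the log2 scale (SE 0.06, edgeR adjusted p = 0.0011) but was at -0.04 after the GC correction (edgeR adjusted p = 0.5937). With total counts in place of TMM scaling the call was lost, at 0.22 (edgeR adjusted p = 0.0107). In H1792 the groups did not overlap either, with 644.6 to 663.9 CPM against 695.2 to 737.8, but the change of 0.13 was not called (edgeR adjusted p = 0.0414).

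PLOD3, which also carries glycosyltransferase activity on hydroxylysine, lies on chromosome 7 from 100849258 to 100861701. As counted it was called higher in both lines, from 116.7 ± 14.4 to 151.6 ± 10.8 CPM in A549 (SD, n = 4) and from 308.6 ± 20.3 to 359.2 ± 4.15 in H1792 (SD, n = 3). The log2 fold changes were 0.39 (SE 0.09, edgeR adjusted p = 0.0025) and 0.22 (SE 0.06, edgeR adjusted p = 0.0086). Neither remained after the GC correction, at -0.00 in A549 (edgeR adjusted p = 0.9669) and -0.10 in H1792 (edgeR adjusted p = 0.0399). With total counts the H1792 call was lost, at 0.16 (edgeR adjusted p = 0.0186). The call was also lost in 4 of 8 fits without 1 A549 library (DMSO replicates 2, 3 and 4 and AMG900 replicate 4, edgeR adjusted p up to 0.0132) and in 5 of 6 without 1 H1792 library (each but DMSO replicate 1, edgeR adjusted p up to 0.0417).

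LOXL4 had the largest increase of the members in both lines as counted, and it kept its call after the GC correction, where the uncalled LOX value of 0.94 in A549 was larger. This lysyl oxidase with scavenger receptor domains lies on chromosome 10 from 100007447 to 100027951. In A549 it had 5.41, 8.01, 7.18 and 7.06 CPM with DMSO and 19.7, 11.7, 12.9 and 12.4 with AMG900, where AMG900 replicate 1 was the highest. All 4 AMG900 libraries were above all DMSO libraries. The log2 fold change was 0.99 (SE 0.19, edgeR adjusted p = 6.2e-04), and 0.80 without AMG900 replicate 1 (edgeR adjusted p = 0.0019). In H1792 it had 2.08, 1.95 and 2.33 CPM with DMSO and 5.61, 4.83 and 4.84 with AMG900. That is a log2 fold change of 1.27 (SE 0.14, edgeR adjusted p = 5.0e-05), with no overlap of the groups. After the GC correction the values were 0.71 in A549 (edgeR adjusted p = 0.0079) and 1.02 in H1792 (edgeR adjusted p = 1.1e-04). LOXL4 remained a small fraction of its family, at 2.85 ± 0.775% of the summed CPM per kb in A549 with AMG900 (SD, n = 4) and 0.474 ± 0.0269% in H1792 (SD, n = 3).

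LOX itself, on chromosome 5 from 121398890 to 121414108, was called in H1792 only. In H1792 it had 193.3, 205 and 203.7 CPM with DMSO and 162.2, 153.8 and 150.9 with AMG900, so every treated library was lower. The log2 fold change was -0.37 (SE 0.05, edgeR adjusted p = 2.8e-04), but 0.02 after the GC correction (edgeR adjusted p = 0.7958). In A549 LOX was near the limit of detection, with 7, 17, 26 and 28 counts in the DMSO libraries and 36, 25, 54 and 27 with AMG900. The groups overlapped in CPM and the log2 fold change of 0.51 (SE 0.31) was not called (edgeR adjusted p = 0.1961).

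LOXL1, on chromosome 15 from 74218330 to 74244478, rose in H1792 from 97.8 ± 2.85 to 124.1 ± 4.66 CPM (SD, n = 3). Its fold change was 0.34 on the log2 scale (SE 0.05, edgeR adjusted p = 4.8e-04). After the GC correction it was at -0.01 (edgeR adjusted p = 0.8619). Its exons overlap those of the antisense transcript LOXL1-AS1 by 335 bases and the strand setting of the counting is not given in the sources used here, so reads of the pair may not be told apart. LOXL1-AS1 changed by 0.00 in H1792 (edgeR adjusted p = 0.9820). In A549 LOXL1 had 3.44 to 7.76 CPM with DMSO and 4.05 to 5.34 with AMG900, and the groups overlapped.

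LOXL2, the most abundant lysyl oxidase in both lines, lies on chromosome 8 from 23154410 to 23282841. It had 434.6 to 467.7 CPM with DMSO and 474.5 to 501.8 with AMG900 in A549, and 684.3 to 711.3 against 766.5 to 819 in H1792. The groups did not overlap in either line, yet neither change was called, at 0.11 in A549 (95% interval -0.02 to 0.23, edgeR adjusted p = 0.1447) and 0.17 in H1792 (95% interval 0.07 to 0.28, edgeR adjusted p = 0.0118). After the GC correction LOXL2 was called lower in A549, at -0.18 (edgeR adjusted p = 0.0085). LOXL3, on chromosome 2 from 74759385 to 74782817, stayed low and overlapped between treatments in both lines, at 0.16 in A549 and -0.07 in H1792 (-0.27 after the GC correction, edgeR adjusted p = 0.0773), and it shares 936 exon bases with HTRA2 on the other strand.

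CTHRC1, on chromosome 8 from 104383766 to 104395217, was measurable in H1792 only. It had 16.0, 14.4 and 14.9 CPM with DMSO and 9.44, 9.62 and 8.06 with AMG900, with no overlap. The log2 fold change was -0.74 (SE 0.10, edgeR adjusted p = 1.4e-04), and -0.60 after the GC correction (edgeR adjusted p = 6.7e-04). The call was lost when all 14 libraries shared one fit (edgeR adjusted p = 0.0265). In A549 the counts were 5, 4, 0 and 3 with DMSO and 0, 8, 2 and 9 with AMG900, which the filter removed, so no change was detectable at this depth.

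**Figure D4:**
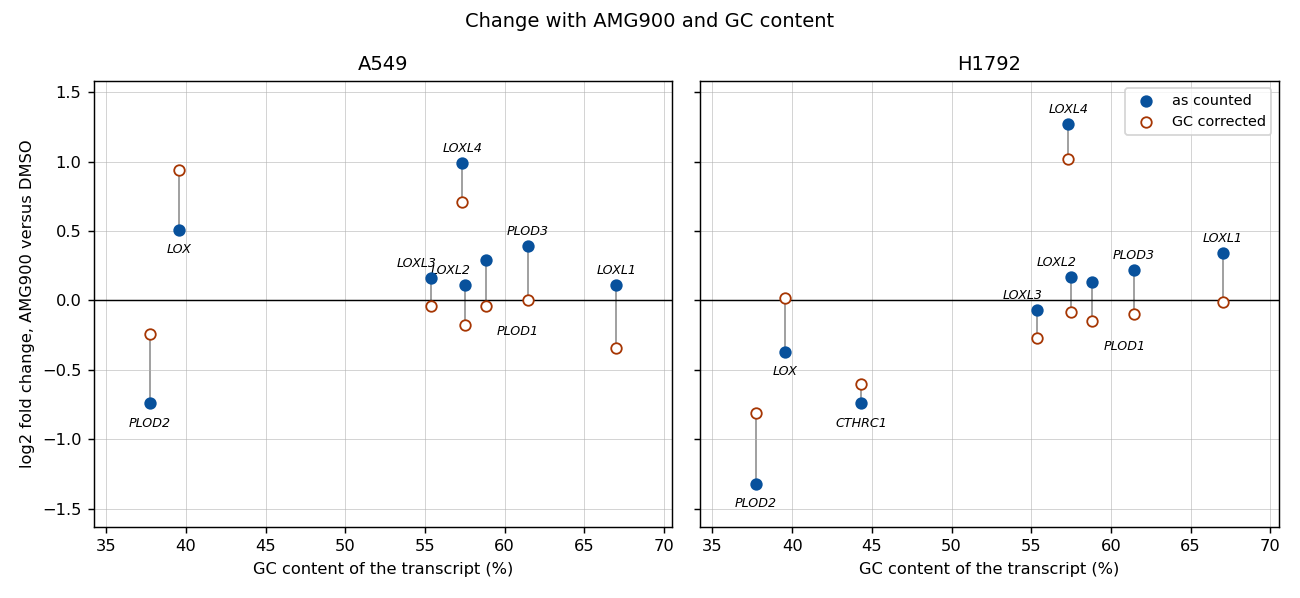
Log2 fold change of AMG900 versus DMSO (y axis) against GC content of the transcript (x axis, %) for each gene in A549 (left) and H1792 (right), as counted (filled) and after the GC correction (open), joined by a line. LOXL4 stays at 0.71 and 1.02 and PLOD2 at -0.81 in H1792 after correction, while PLOD1, PLOD3 and LOXL1 move to or below zero in both lines.

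The interaction term of a fit over all 14 libraries tested whether the response differed by line. No member was called higher and 2 were called lower in H1792 relative to A549, where 5.37% of 14769 genes were called higher and 9.17% lower and the median over all genes was -0.098. In counts this split was 793 higher and 1355 lower, and it moved to 988 and 1047 with total counts, 1012 and 1033 with DESeq2 size factors and 1373 and 1116 with the GC correction. LOX differed by -0.93 (SE 0.23, edgeR adjusted p = 0.0051), resting on its few counts in A549. PLOD2 differed by -0.65 (SE 0.15, edgeR adjusted p = 0.0040). Both calls held after the GC correction, at -0.89 (edgeR adjusted p = 0.0042) and -0.57 (edgeR adjusted p = 0.0019), but each was lost in 7 of the 14 fits that left out 1 library, with edgeR adjusted p up to 0.0220 for LOX and 0.0161 for PLOD2. For LOX these were A549 DMSO replicates 2 and 4, A549 AMG900 replicates 1 and 3, H1792 DMSO replicate 3 and H1792 AMG900 replicates 2 and 3. For PLOD2 they were A549 DMSO replicates 3 and 4, A549 AMG900 replicate 2, H1792 DMSO replicates 2 and 3 and H1792 AMG900 replicates 2 and 3. With total counts neither was called, at -0.85 (edgeR adjusted p = 0.0129) and -0.57 (edgeR adjusted p = 0.0168). LOXL4 did not differ detectably, at 0.21 (95% interval -0.31 to 0.73).

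The genes that act before and beside these enzymes were described by lists. Over all genes tested, 17.2% were called higher and 17.8% lower in A549, and 16.2% and 18.8% in H1792. Whether any list departs from these shares was not tested. Of 17 genes of procollagen folding and hydroxylation, 8 were called higher and 2 lower in A549, and 3 higher and 6 lower in H1792, with medians of 0.36 and -0.04. P4HA1, a catalytic subunit of prolyl 4-hydroxylase, fell in both lines, with log2 fold changes of -0.61 in A549 (edgeR adjusted p = 0.0049) and -1.63 in H1792 (edgeR adjusted p = 1.9e-06). P4HA2, its sister subunit, rose in A549 by 0.81 (edgeR adjusted p = 1.0e-06) and was not called in H1792, at 0.05 (edgeR adjusted p = 0.5194). PPIB, a collagen prolyl isomerase, rose by 0.52 in A549 (edgeR adjusted p = 1.2e-05) and by 0.35 in H1792 (edgeR adjusted p = 3.1e-04). Of 14 genes of secretion and processing, 3 were higher and 1 lower among 10 tested in A549, and 6 higher and 3 lower among 14 in H1792. SEC23A, a coat protein of vesicles leaving the endoplasmic reticulum, fell by 0.83 in A549 (edgeR adjusted p = 9.8e-05) and by 0.72 in H1792 (edgeR adjusted p = 2.2e-04). BMP1, the procollagen C-proteinase that also matures LOX, rose by 0.74 in A549 (edgeR adjusted p = 1.2e-06) and by 0.46 in H1792 (edgeR adjusted p = 7.2e-05). ADAMTS14, an N-proteinase, rose by 0.53 in H1792 (edgeR adjusted p = 6.4e-05) and did not pass the filter in A549.

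Of 11 fibrillar chains, 5 were tested in A549, with 1 higher and 2 lower, and 8 in H1792, with 1 higher and 4 lower. COL1A1, the main chain of type I collagen, fell from 97.3 ± 15.5 to 43.6 ± 3.73 CPM in A549 (SD, n = 4) and from 2312 ± 306.2 to 1547 ± 21.3 in H1792 (SD, n = 3). COL3A1 fell by 1.13 in H1792 (edgeR adjusted p = 1.9e-06), and COL27A1 rose in both lines, by 0.57 (edgeR adjusted p = 2.3e-04) and 0.36 (edgeR adjusted p = 0.0033). COL1A2 and COL3A1 had at most 17 and 2 counts per A549 library. Of 14 elastic fibre genes, 4 were higher and 2 lower in each line, among 10 tested in A549 and 11 in H1792. FBLN1, a fibulin, changed by -0.97 in A549 (edgeR adjusted p = 1.3e-06) and by 0.42 in H1792 (edgeR adjusted p = 7.8e-04). MFAP2, a microfibril protein, was higher by 1.01 in H1792 (edgeR adjusted p = 1.1e-05). EFEMP1 changed by -0.73 in A549 (edgeR adjusted p = 0.0012) and by -0.86 in H1792 (edgeR adjusted p = 2.6e-06).

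Of 10 genes of copper delivery and lysyl oxidase maturation, 3 were higher and 0 lower among 9 tested in A549, and 1 higher and 2 lower in H1792. FN1, the fibronectin scaffold, rose by 0.88 in A549 (edgeR adjusted p = 2.5e-06) and was not called in H1792, at -0.21 (edgeR adjusted p = 0.0721). POSTN, a matricellular protein that helps BMP1 act on LOX, fell by 1.49 in H1792 (edgeR adjusted p = 3.2e-05). Of 16 hypoxia-induced genes, 4 were higher and 6 lower in A549, with a median of -0.21, and 2 were higher and 10 lower in H1792, with a median of -0.34. LDHA, lactate dehydrogenase A, changed by -1.42 in A549 (edgeR adjusted p = 8.2e-09) and by -0.71 in H1792 (edgeR adjusted p = 4.3e-04). PFKFB3, a glycolytic regulator, changed by -0.85 in A549 (edgeR adjusted p = 2.6e-07) and by -0.82 in H1792 (edgeR adjusted p = 5.4e-06). ADM rose by 0.91 in A549 and 0.61 in H1792, and ANGPTL4 rose by 0.62 in A549 and 1.12 in H1792. Of 12 TGF-beta induced genes, 6 were higher and 1 lower in A549 and 2 higher and 2 lower in H1792, among 11 tested in each. CTGF, a matricellular growth factor, fell in both lines, with log2 fold changes of -0.51 (edgeR adjusted p = 0.0052) and -1.15 (edgeR adjusted p = 7.5e-07).

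The GC correction also changed these lists. Over all genes tested with it, 1876 of 12789 were higher and 2340 lower in A549, and 2178 of 14375 higher and 3257 lower in H1792. As counted these were 2265 and 2340 of 13174 in A549, and 2439 and 2827 of 15017 in H1792. P4HA1 was at -0.16 in A549 (edgeR adjusted p = 0.3511) and still lower in H1792 at -1.26 (edgeR adjusted p = 6.1e-07). SEC23A was at -0.39 in A549 (edgeR adjusted p = 0.0115) and -0.33 in H1792 (edgeR adjusted p = 0.0022), and COL27A1 was called in neither line. ADAMTS14 in H1792 lost its call, at 0.20 (edgeR adjusted p = 0.0174). COL1A1 in A549 and COL3A1 in H1792 were further from 0 after it, at -1.54 (edgeR adjusted p = 8.3e-09) and -1.25 (edgeR adjusted p = 1.4e-07). Among the hypoxia-induced genes 2 were higher and 6 lower in A549 and 2 higher and 8 lower in H1792, and among those of folding and hydroxylation 4 were higher and 2 lower in A549 and 1 higher and 9 lower in H1792. For secretion and processing the corrected counts were 2 higher and 0 lower in A549 and 3 higher and 3 lower in H1792, and for the fibrillar chains 0 higher and 3 lower in A549 and 0 higher and 4 lower in H1792. Elastic fibre genes had 1 higher and 1 lower in A549 and 2 higher and 2 lower in H1792. Genes of copper delivery and maturation had 4 higher and 0 lower in A549 and 0 higher and 4 lower in H1792. Of the TGF-beta induced genes, 3 were higher and 2 lower in A549, and 1 was higher and 4 lower in H1792.

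Marker genes were checked for the identity of the cells. With DMSO, KRT8 averaged 3056 CPM in A549 and 466.7 in H1792, KRT7 3706 and 1002, and KRT18 1555 and 267.6. KRT19 averaged 25.0 and 7.12 CPM, CDH1 21.9 and 0.697, EPCAM 0.287 and 3.48, and KRT17 0.0215 and 0.530. The lung lineage markers NKX2-1 and SFTPC were near 0 in both lines, and NAPSA averaged 0.876 and 0.651. The summed CPM of 10 fibroblast markers was 119.9 to 129 with DMSO and 236.3 to 252.4 with AMG900 in A549, and 131.9 to 133.1 against 141.4 to 143.7 in H1792. In A549 the rise of this sum was carried by ACTA2, which averaged 51.3 CPM with DMSO and 194.8 with AMG900. FBLN1, the highest of the 10 there with DMSO, went from 65.8 to 35.6. In H1792 FBLN1 went from 47.3 to 63.2 CPM, ACTA2 from 15.9 to 18.7, COL6A3 from 10.7 to 14.2 and PDGFRB from 11.1 to 13.5. There DCN went from 30.6 to 22.4, PDGFRA from 12.4 to 8.24 and LUM from 4.31 to 1.87. With DMSO, DCN and LUM were near 0 in A549, whereas THY1 was at 6.36 CPM in A549 and near 0 in H1792. The sum of 8 endothelial and blood markers, nearly all of it CD68, was 55.6 to 81.7 against 157.7 to 175.7 in A549 and 104.2 to 132.2 against 181 to 205.3 in H1792, with CD3E and PTPRC at or near 0. Epithelial markers summed to 7536 to 9796 against 10711 to 12623 in A549 and to 1575 to 1977 against 1987 to 2030 in H1792. The part of these shifts in the members' changes was not tested.

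For the members called in both lines, the genes most alike across the 14 libraries were found by Pearson's r of log2 CPM centred within each line, among 10855 genes. This is a description, since all libraries share the treatment and the GC trend. PLOD2 was most like JAK1 (r = 0.987), SLC44A1 (0.983) and SLC38A2 (0.978). LOXL4 was most like PORCN (0.968), MRPL40 (0.963) and ARFIP2 (0.962), and PLOD3 was most like GLTSCR2 (0.987), PIDD1 (0.986) and ADM (0.984).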

How the data were processed

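The authors deposited raw read counts per gene symbol for 14 libraries, 1 table for each line, without normalization. The submitters' processing notes name STAR, HTSeq, hg19 and GRCh37, and versions and counting options are not given in the sources used here. In the H1792 table, 28 date entries standing in place of gene names (0.101 to 0.117% of counts) were left out. Counts were analysed in R 4.3.3 with edgeR 4.0.16 (filterByExpr, TMM scaling, quasi-likelihood test, Benjamini-Hochberg over all genes tested, FDR threshold 0.01). The biological coefficient of variation was 12.8% in A549 and 9.60% in H1792. CPM within a line used that line's scaling, and CPM per kb, marker levels and the comparison of the lines used all 14 libraries. GC content, length and GRCh37 positions came from GENCODE. The GC correction was a natural spline with 5 degrees of freedom per library. DESeq2 1.42.0 and the other alternatives are given in the closing section. Genes named besides the members were, per list and line, the called gene with the largest rise and fall among those with a mean of at least 100 counts. Replicate numbers gave no sign of pairing the libraries, and a fit with replicate as a block is given in the closing section. The members and lists were chosen with earlier results of these data known. The steps were tested on simulated data.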

Additional observations from a re-analysis of the deposited data

Results flagged for a closer look

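The AMG900 response of LOX differed between the lines by the test of the interaction, with a log2 fold change in H1792 minus A549 of -0.93 (edgeR adjusted p = 0.0051). LOX fell in H1792 in all 3 treated libraries, while in A549 it had between 7 and 54 counts per library. The response of PLOD2 also differed, by -0.65 (edgeR adjusted p = 0.0040), with a decrease in both lines. No library was flagged at any member by Dixon's test in the A549 groups of 4, a test that flags about 1 in 20 groups by chance. With 4 values this test detects little, and the H1792 groups of 3 were not tested. A549 DMSO replicate 1 had the largest gap of its group for LOXL1, LOXL3, LOXL4, PLOD1 and PLOD3. Over all genes, the chi-square per gene was 13.77 to 16.65 for its pairs with other DMSO replicates, against 3.313 to 4.749 among those. Without it, 2876 genes were called higher and 2978 lower in A549, beside 2265 and 2340 with it.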

How the results depend on the processing

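Over all alternatives, 669 single-gene values kept their direction and their side of the threshold, 48 lost a call, 7 gained one and 42 changed sign. The 9 differences between the lines with DMSO kept their direction in every alternative that tested them, where only LOXL2, at 0.73, was below the 2-fold limit. In H1792 the calls of LOXL4 and PLOD2 held in all 18 alternatives each. The settings with a GC correction changed the most signs, and the cause was not tested. With the GC correction 1 member was higher in A549 and 1 in H1792, and the same numbers held with the GC and length correction. Over all genes, 1876 of 12789 were higher in A549 and 2178 of 14375 in H1792 with the GC correction. With length added these were 1841 and 2155. The 1 member lower in A549 with the GC correction was LOXL2 and no longer PLOD2, and with length added 0 members were lower. Over all genes 2340 and 2271 were lower there. With the replicate block and GC correction together 0 members were higher and 0 lower in A549, and 1 was higher in H1792. Over all genes, 1617 were higher and 2092 lower in A549, and 1879 were higher in H1792. Signs turned as follows with GC, with GC and length, and with the replicate block and GC. In A549 LOXL1 was at -0.34, -0.35 and -0.35, LOXL2 at -0.18, -0.12 and -0.18, and PLOD1 at -0.04, -0.02 and -0.04. There LOXL3 was at -0.04 with GC and -0.06 with block and GC, and PLOD3 at -0.00 and -0.01. In H1792 LOX was at 0.02, 0.07 and 0.02, LOXL1 at -0.01, -0.03 and -0.01, LOXL2 at -0.08, -0.02 and -0.08, PLOD1 at -0.15, -0.13 and -0.15, and PLOD3 at -0.10, -0.09 and -0.10. The LOXL2 interaction, -0.01 as reported, was 0.16, 0.15 and 0.16 there, 0.07 with DESeq2, 0.07 with its size factors, 0.08 with total counts and 0.00 with no filter.

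With a change of at least 2-fold required, 0 members were higher and 0 lower in A549, 1 was higher and 1 lower in H1792, and 0 were called in the interaction. Over all genes, that limit left 695 higher and 769 lower of 13174 in A549, and 476 and 781 of 15017 in H1792. In the interaction it left 395 higher and 516 lower of 14769. At an FDR of 0.05, 5 members were higher in H1792, where 3689 of 15017 genes were higher. With all 14 libraries in one fit 1 member was higher and 2 lower there, with LOXL1, PLOD3 and CTHRC1 no longer called. LOXL2 was added in A549 (0.19, edgeR adjusted p = 0.0059), making 4 higher. Over all 14769 genes of that fit, 1608 were higher and 2063 lower in H1792, and 3276 were higher in A549. Total counts left 2 members higher in each line, without PLOD1 in A549 and PLOD3 in H1792. Over all genes 1870 were higher in A549 and 1859 in H1792 with total counts. The interaction called 1 member lower with DESeq2 size factors, 0 with total counts and 1 with at least 10 counts in every library, where LOX and CTHRC1 were not tested. Over all genes 1033, 1047 and 1297 were called lower with these settings. Leaving out 1 library gave 0 to 2 members lower in the interaction, and 0 without A549 DMSO replicate 4, H1792 DMSO replicate 3 or H1792 AMG900 replicates 2 or 3. Values then ranged from -0.03 to 0.33 for LOXL1 in A549, from -0.18 to 0.01 for LOXL3 in H1792, and in the interaction from -0.04 to 0.23 for LOXL1 and from -0.04 to 0.02 for LOXL2. Leaving out both A549 replicate 1 libraries, chosen after seeing the data as the shallowest of their groups, kept 3 members higher and 1 lower. Over all genes 2841 were then higher and 2912 lower.

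Replicate numbers gave no sign of pairing the libraries, as the correlations of same-numbered deviations lay between -0.060 and 0.043. So few values cannot exclude a shared seeding or batch. With the replicate block 3 members were higher and 1 lower in A549, 2 higher and 3 lower in H1792 and 2 lower in the interaction. Over all genes, 1923 were higher and 1984 lower in A549, 2170 and 2618 in H1792, and 984 were lower in the interaction. PLOD3 in H1792 lost its call (0.22, edgeR adjusted p = 0.0140), and the block changed no other call of a member. Depth limits LOX, LOXL3 and CTHRC1 in A549.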
